A study of Mus musculus with 6 samples.

Results

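The genes described here are 31 genes of DNA synthesis and cell division, followed in splenic B cells of lupus-prone and control mice. They were taken as a list of symbols, and every probe annotated to one of them was read. By the same list, 10 are replication genes (Mcm2 to Mcm7, Pcna, Rrm1, Rrm2 and Tyms) and 21 are mitotic genes. Thymidine kinase Tk1, an enzyme of nucleotide supply, stands with the mitotic genes under that split. Splenic B cells were isolated fresh, and their total RNA was read on Illumina mouse BeadChips, with 1 array for each mouse. The Sle2 group held 3 mice of the B6.Sle2 strain, which carries the Sle2 lupus susceptibility locus of NZM2410 chromosome 4 on a C57Bl/6 background. The B6 group held 3 wild type C57Bl/6 mice. The labels used here give no age, sex or treatment, and the comparison is of a whole congenic segment, not of a chosen gene.

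Most B cells of the spleen are resting cells that have left the cell cycle, and dividing B cells are found mainly in germinal centres and among plasmablasts. Entry into S phase requires the Mcm2 to Mcm7 ring, which unwinds DNA at replication origins, and enzymes that supply deoxynucleotides. Entry into mitosis requires Cdk1 with its cyclins, followed by kinases, motors and centromere proteins that separate the chromosomes. In bulk RNA of this kind, fewer dividing cells and less of a transcript per dividing cell cannot be told apart.

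Of the 31 genes, 28 had at least 1 probe with a symbol of their own, in all 61 probes. No probe was assigned here to Mki67, Ccnb1 or Tacc3, so their transcripts were not measured. A probe was tested if its detection p-value was under 0.05 on at least 3 of the 6 arrays, which 40 of the 61 probes met. These 40 probes measured 21 genes, 9 replication and 12 mitotic genes, and a gene was then read from its brightest tested probe. Pcna, the sliding clamp of the replication fork, was detected on 1 array by its only probe. Ccnb2 and Ccna2 (cyclins), Bub1 (a checkpoint kinase), Kif20a and Cenpe (mitotic kinesins) and Stmn1 (a microtubule destabiliser) were detected on no array. Except for Bub1, with 2 probes, these 7 genes had 1 probe each. A further 13 undetected probes belonged to genes that another probe of the same gene did detect, 3 of them to Tyms and 3 to Nusap1. An undetected probe is therefore not a measure of an absent transcript here.

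**Figure D1:**
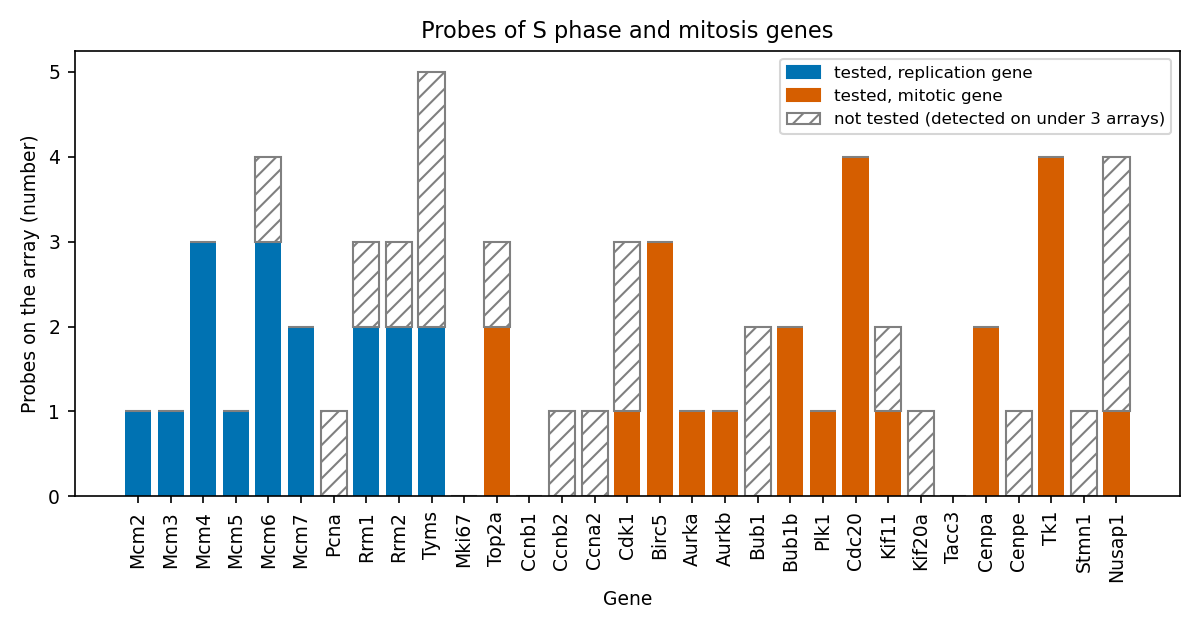
Number of array probes of each of the 31 genes, with tested probes filled (blue for replication genes, orange for mitotic genes) and probes detected on under 3 arrays hatched. Tested probes covered 21 genes, Mki67, Ccnb1 and Tacc3 have no bar, and 8 genes had both tested and untested probes.

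All 8 B cell markers with a probe were tested, among them Cd79b, Cd22, Ms4a1 and Pax5. Arrays detected 17417 to 17923 probes each. The sex-linked transcripts differed between mice within each strain. Xist, the RNA of the inactive X chromosome, was at 10.93 in Sle2 mouse 3 and 10.13 in B6 mouse 2, between 4.30 and 4.36 in Sle2 mice 1 and 2 and B6 mouse 1, and at 5.89 in B6 mouse 3. The Y-linked Eif2s3y was at 8.33 to 8.67 in Sle2 mice 1 and 2 and B6 mice 1 and 3, against 5.36 in Sle2 mouse 3 and 4.65 in B6 mouse 2. B6 mouse 3 thus had a detected Xist signal beside a high Y-linked signal. All levels here are log2 intensities after background correction and quantile normalization, and a level can be compared between mice but not between probes.

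The design asks whether the chromosome 4 segment changes transcript levels in peripheral B cells. For DNA synthesis and division, no member passed the test. Of the 21 tested members, limma called 0 at the 0.05 level of adjusted p, against 1.04% of all 9297 tested genes (0.656% higher and 0.387% lower in Sle2). At the 0.1 level it also called 0 members, against 2.69% of all tested genes. At an unadjusted p under 0.05 there was 1 member, Mcm3, against 16.9% of all tested genes. The strains did not overlap for 4 members (19.0%), against 24.2% of all tested genes. The mean was higher in Sle2 for 11 of the 21, against 54.2% of all tested genes. The median difference of the 21 members, Sle2 minus B6, was 0.07 on the log2 scale, against 0.02 for all tested genes. Adjusted p-values of the members ran from 0.286 to 0.971. The exact two-sided permutation p for 3 against 3 mice cannot go below 0.1. The titles number the mice from 1 to 3 within each strain and name no pairing. The limma p-values set the strain difference against the spread between mice of a strain, with each probe's variance drawn toward that of all kept probes. Where the mice of a gene spread more than most, its SE and interval are narrower than its own spread alone would give.

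Among the replication genes, 7 of the 9 tested were lower in Sle2 in the mean and 2 were higher, none past the test. Mcm3, a subunit of the helicase ring, was at 7.57, 7.42 and 7.50 in Sle2 mice 1, 2 and 3 and at 7.79, 7.61 and 7.76 in the B6 mice. Every Sle2 mouse lay below every B6 mouse. The difference was -0.23 (SE 0.0992, adjusted p = 0.286), with a 95% interval from -0.45 to -0.00296. Mcm7 was at 7.27, 7.46 and 7.14 in Sle2 and 7.54, 7.54 and 7.46 in B6, where the highest Sle2 mouse and the lowest B6 mouse were both at 7.46. Its difference was -0.23 (SE 0.109, adjusted p = 0.332), and its other probe gave -0.27. Of the other helicase subunits, Mcm2 was at -0.12, Mcm4 at -0.05, Mcm5 at 0.12 and Mcm6 at -0.02, each with overlapping strains. On the brightest probes, all ring subunits but Mcm5 were thus lower in Sle2 in the mean, none past the test. Other tested probes were at 0.16 and 0.03 for Mcm6, so its direction depended on the probe, and at -0.22 and -0.25 for Mcm4. With arrays scaled to equal medians, Mcm2, Mcm4 and Mcm6 were at 0.02, 0.12 and 0.12, while Mcm3 and Mcm7 stayed lower at -0.11 and -0.12. A shift of the ring as a set was not tested.

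The enzymes of nucleotide supply gave differences of either sign. Rrm1, the large subunit of ribonucleotide reductase, was at -0.15 (95% interval -0.49 to 0.20), and its second tested probe was at -0.12. Rrm2, the small subunit made in S phase, was at 6.06, 6.13 and 5.39 in Sle2 and 6.11, 5.64 and 6.18 in B6, with Sle2 mouse 3 the lowest of all. Its difference was -0.12 (SE 0.216, adjusted p = 0.819). Tyms, which makes thymidylate, was at 7.09, 7.29 and 7.08 in Sle2 and 7.02, 6.90 and 7.07 in B6. Here every Sle2 mouse lay above every B6 mouse, but the nearest pair were almost equal, and the difference of 0.15 did not pass (adjusted p = 0.483). The second tested probe of Tyms was at -0.01.

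Tk1, which salvages thymidine, was at 8.11, 8.27 and 8.16 in Sle2 and 8.01, 7.94 and 7.97 in B6. The strains did not overlap on this probe, the brightest of its 4, and the difference was 0.21 (SE 0.0935, adjusted p = 0.301). The other probes of Tk1 gave 0.03, -0.14 and -0.21, so its direction depended on the probe. On the probe at -0.21 every Sle2 mouse lay below every B6 mouse, with the nearest pair at 6.16 and 6.17. Of the 12 members with more than 1 tested probe, the sign differed between probes in 7.

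Of the 12 mitotic genes tested, 9 were higher in Sle2 in the mean and 3 were lower, again none past the test. The largest differences were those of Nusap1, a microtubule-binding protein of the spindle (0.24, SE 0.184, adjusted p = 0.53), and Plk1, a kinase of mitotic entry and exit (0.24, SE 0.208, adjusted p = 0.584). Plk1 was at 7.21, 7.33 and 6.75 in Sle2 and 7.27, 6.57 and 6.72 in B6. Its strains overlapped widely, with a high and a low mouse in each. Cdk1, the kinase that drives mitosis, differed by -0.02, with a 95% interval from -0.49 to 0.45. Aurka, a centrosome kinase, was at 0.17, and Aurkb and Birc5, partners in the chromosomal passenger complex, were at 0.07 and 0.14. Bub1b, of the spindle checkpoint, was at 0.10, Cenpa, the centromeric histone, at -0.10, and Kif11, the kinesin that keeps spindle poles apart, at -0.04. Top2a, which untangles DNA, was at 0.16. Intervals of the mitotic genes reached 0.71 for Plk1 and -0.63 for Kif11, so differences up to these sizes lay within the intervals. Cdc20, the activator of the anaphase-promoting complex, lies on chromosome 4, where 5.22% of 575 tested genes were called. Its 4 probes gave differences from -0.09 to 0.22, none past the test.

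**Figure D2:**
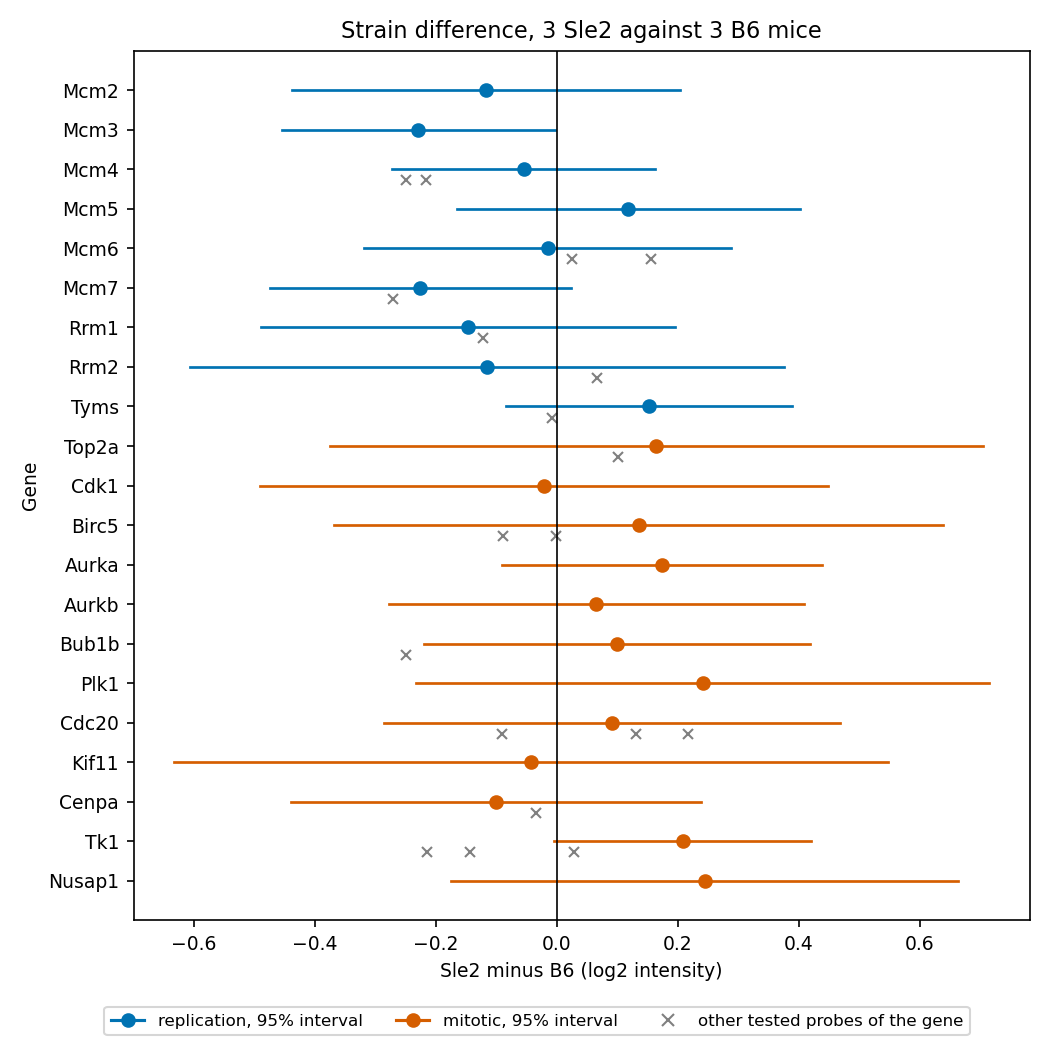
Difference between strains (Sle2 minus B6, log2 intensity) for the 21 tested genes, with dots for the brightest tested probe, lines for its 95% interval from limma and grey crosses for other tested probes of the gene, 3 mice per strain. Dots lie between -0.23 for Mcm3 and 0.24 for Nusap1, and the interval of Mcm3 ends just below 0 while all the others cross it.

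In 9 of the 12 mitotic genes the strain difference was smaller than the SD within either strain, the exceptions being Aurka, Tk1 and Nusap1. The median within-strain SD was 0.273 over the 12 mitotic genes and 0.161 over the 9 replication genes, against 0.135 over all tested genes. Top2a was at 7.31, 7.43 and 6.92 in Sle2 mice 1, 2 and 3 and at 7.58, 6.60 and 6.99 in the B6 mice. Birc5 was at 7.52, 7.73 and 7.08 in Sle2 and 7.70, 6.91 and 7.31 in B6. Cdk1 was at 6.38, 6.28 and 5.80 in Sle2 and 6.52, 5.80 and 6.20 in B6. In all 3 genes Sle2 mouse 3 and B6 mouse 2 were the lowest of their strain. Kif11 was detected on 4 arrays, and these 2 mice were the ones without detection.

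This order held for most mitotic genes. B6 mouse 2 was the lowest B6 mouse in 12 of 12 (33.4% of all tested genes), and Sle2 mouse 3 was the lowest Sle2 mouse in 9 of 12 (34.7% of all). Both held in 9 of 12 mitotic genes, against 11.0% of all tested genes, and the 3 exceptions were Aurka, Tk1 and Nusap1. Over all 23 tested probes of the mitotic genes, both held in 13, and over the 17 of the replication genes in 4. All 3 probes of Birc5 gave these lowest mice, while the other tested probes of Top2a, Bub1b and Cenpa did not. The other probes of Cdc20 were divided on this. Genes of a list are not independent replicates, and the order was noticed in the values and then counted, so the counts are a description. B6 mouse 1 was the highest B6 mouse in 11 of 12. Among replication genes, Sle2 mouse 3 was lowest in 8 of 9 but B6 mouse 2 in 4 of 9.

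**Figure D3:**
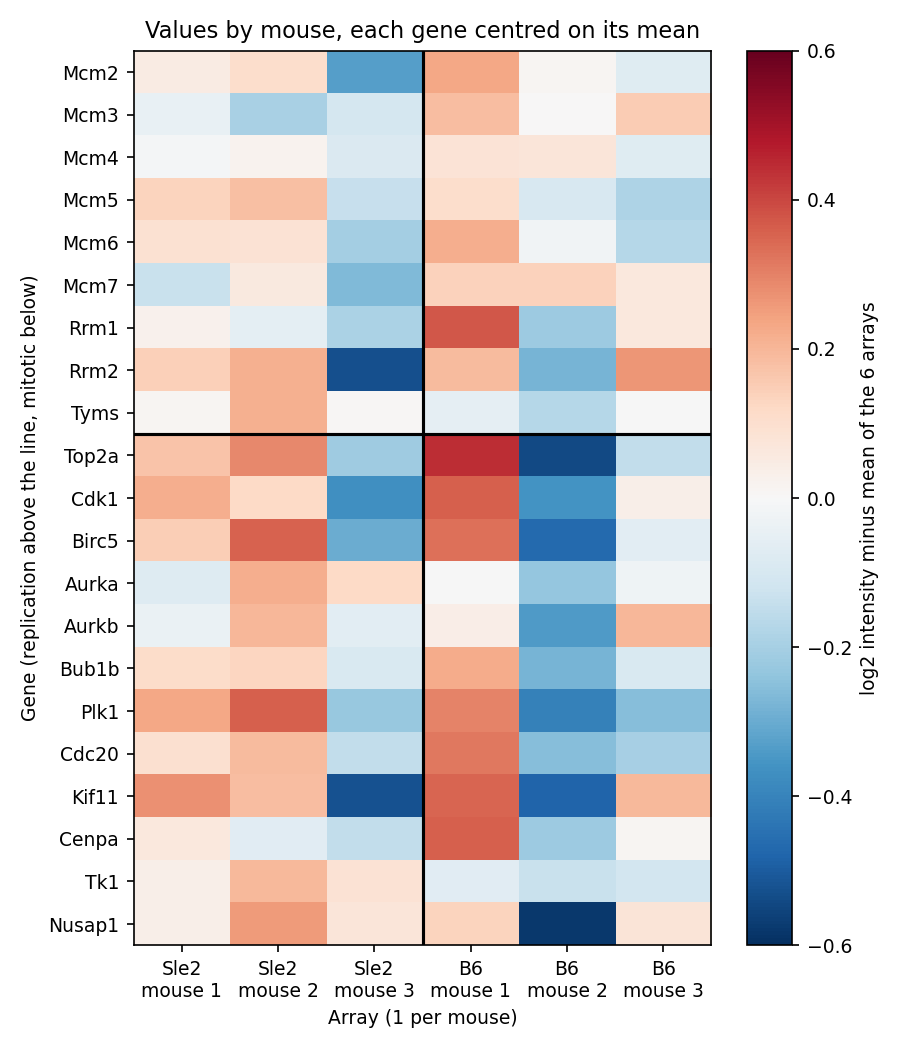
Log2 intensity of each of the 21 tested genes on each array minus the gene's mean over the 6 arrays, with replication genes above the horizontal line, mitotic genes below it, and Sle2 mice left of the vertical line. B6 mouse 2 is the lowest B6 mouse in every mitotic row, and Sle2 mouse 3 the lowest Sle2 mouse in 9 of 12.

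A score per array, the mean of these centred values over a list, gives the same picture. The mitotic score was 0.11, 0.20 and -0.15 in Sle2 mice 1, 2 and 3 and 0.23, -0.36 and -0.03 in the B6 mice. Strain means differed by 0.10, while the range within a strain was 0.35 in Sle2 and 0.59 in B6. Without B6 mouse 2 the difference turned to -0.05, and it was 0.25 without B6 mouse 1, 0.21 without Sle2 mouse 3 and 0.03 without Sle2 mouse 2. With arrays scaled to equal medians it was 0.21. The replication score was 0.03, 0.07 and -0.20 in Sle2 and 0.16, -0.06 and 0.00 in B6, a difference of -0.07, which turned to 0.01 without Sle2 mouse 3 and to 0.06 with arrays scaled to equal medians. That scaling moved the median of all tested genes from 0.02 to 0.14. It called 219 genes higher and 26 lower in Sle2, against 61 and 36 with quantile normalization. In 8 of 12 mitotic genes it kept both mice as the lowest of their strains.

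The low mice were those with high Xist and little Y-linked signal. With the Xist level of each array as a covariate, the strain difference of the mitotic score was 0.09, and no member was called by limma. In the 4 other mice alone it was 0.05, and no member was called either. Whether sex has a part in the spread was not tested, as each strain holds 1 mouse with a high Xist level. In none of the marker lists of other cells were Sle2 mouse 3 and B6 mouse 2 both the lowest of their strains, and their part in the spread was not tested. The germinal centre score was -0.11, 0.13 and -0.20 in Sle2 and 0.07, 0.10 and 0.01 in B6, from 5 of 10 markers, with Gcsam, Rgs13, Mybl1 and Basp1 below the detection rule. Its summed intensity on the linear scale was 3092 to 3407 in Sle2 and 3456 to 3609 in B6. The germinal centre markers with the smallest p were Bcl6 (-0.21) and Fas (0.23). Of the 5 tested, 1 was higher and 4 were lower in Sle2 in the mean. The erythroid score was 0.27, -0.05 and 0.25 in Sle2 and -0.27, -0.46 and 0.25 in B6, from 10 of 14 markers. Its summed intensity was 29775 to 40046 in Sle2 and 23527 to 41409 in B6, with Sptb at 0.71 and Slc4a1 at 1.13. The other tested probe of Sptb was at 0.05, so its difference depended on the probe. Of the 10 tested erythroid markers, 7 were higher and 3 lower in Sle2 in the mean, from -0.49 to 1.13, none past the test. The plasma cell score was 0.32, 0.12 and 0.05 in Sle2 and 0.12, -0.29 and -0.32 in B6, from 8 of 10 markers, without Prdm1 and Jchain, which fell below the detection rule. Its summed intensity was 18594 to 20188 in Sle2 and 14768 to 17935 in B6, with Derl3 at 0.66 and Edem2 at 0.34. Other tested probes of Edem2 were at -0.02, 0.27 and 0.13. All 8 tested plasma cell markers were higher in Sle2 in the mean. The T cell score, from 9 of 14 markers, was 0.29, 0.17 and 0.06 in Sle2 and 0.01, -0.24 and -0.30 in B6, so the strains did not overlap. Its summed intensity was 1695 to 1939 in Sle2 and 1659 to 1779 in B6, with Bcl11b at 0.69 and Zap70 at 0.50. The other tested probe of Bcl11b was at 0.24. Of the 9 tested T cell markers, 8 were higher and 1 was lower in Sle2 in the mean, while Cd4, Cd8a and Cd5 fell below the detection rule. The myeloid score, from 11 of 14 markers, was 0.16, -0.09 and 0.19 in Sle2 and -0.29, -0.32 and 0.34 in B6. Its summed intensity was 4939 to 6833 in Sle2 and 5057 to 7304 in B6, with Spic at -0.41 and Lyz2 at 0.44. Of the 11 tested myeloid markers, 9 were higher and 2 were lower in Sle2 in the mean. In these 5 lists limma called 0 of 43 tested markers, against 1.04% of all tested genes, and 12 (27.9%) had an unadjusted p under 0.05, against 16.9% of all.

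**Figure D4:**
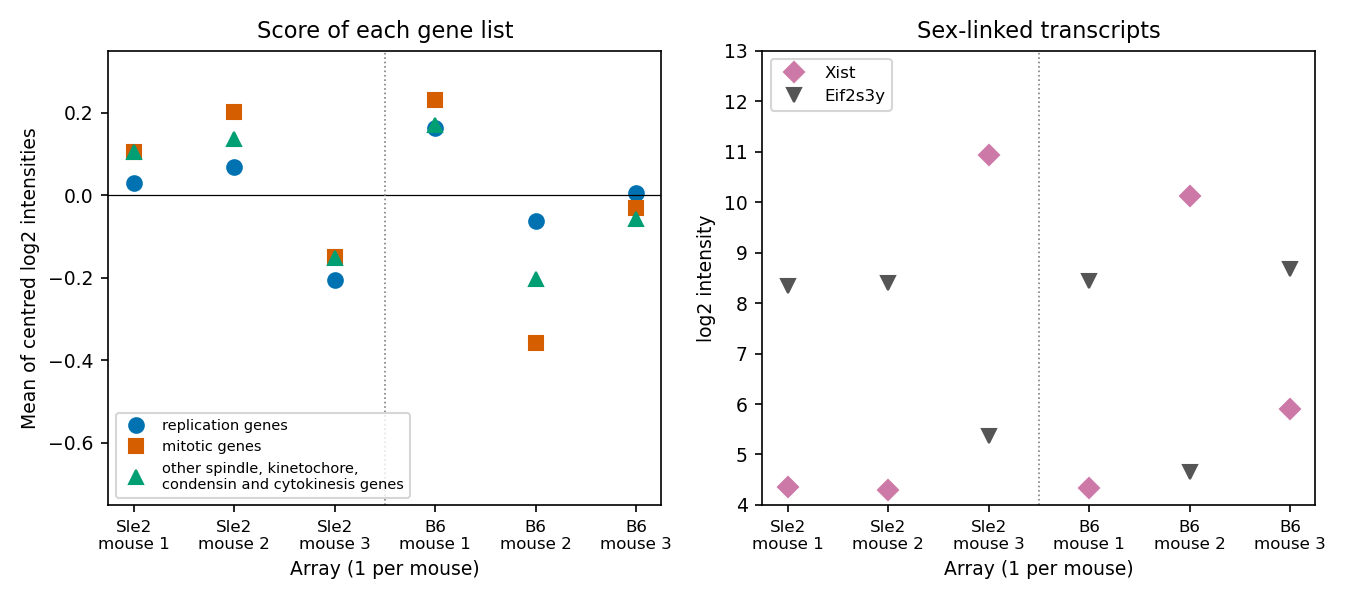
Left, mean centred log2 intensity per array of the 9 replication genes, the 12 mitotic genes and the 39 other spindle, kinetochore, condensin and cytokinesis genes. Right, log2 intensity of Xist and the Y-linked Eif2s3y. The mitotic score is lowest in Sle2 mouse 3 (-0.15) and B6 mouse 2 (-0.36), the mice in which Xist is high.

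Other genes of the cell cycle were read in 5 lists, of which the spindle list gave the most frequent order of this kind. The 39 tested genes of spindle, kinetochore, condensin and cytokinesis scored 0.10, 0.14 and -0.15 in Sle2 and 0.17, -0.20 and -0.06 in B6. Both low mice were the lowest of their strain in 21 of the 39 (53.8%, against 11.0% of all tested genes). For 19 genes of origin licensing and firing this held in 3, for 28 genes of the replication fork and nucleotide supply in 8, for 15 genes of E2F and MuvB control in 2, and for 16 genes of mitotic entry and the anaphase-promoting complex in 5. In the list of mitotic entry, B6 mouse 2 scored -0.02 and B6 mouse 3 scored -0.03, so B6 mouse 2 was not the lowest there. Nor was it in the E2F and MuvB list, at -0.052 against -0.054 in B6 mouse 3. For licensing and firing, Sle2 mouse 1 scored -0.0025 and Sle2 mouse 3 scored 0.016, so Sle2 mouse 3 was not the lowest. The difference between lists was not tested.

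Promoter sequences were read to see what the members share besides their annotation. RefSeq promoters (GRCm38.p6, from 250 bases before to 50 after the start) were found for 9 replication and 17 mitotic genes. Those of Mcm4, Ccna2, Aurkb, Kif20a and Stmn1 were not used here. As background, E2F factors bind GC-rich words in promoters of S phase genes, and the CHR element, often with CCAAT boxes upstream, is known from promoters of mitotic genes. The E2F words searched were TTTCCCGC, TTTCGCGC, TTTGCCGC and TTTGGCGC, the CHR words TTTGAA and TTCGAA, and the box CCAAT, all on both strands. An E2F word stood in 4 of 9 replication and 1 of 17 mitotic genes, against 4.81% of tested genes with a promoter and 2.26% of all promoters. A CHR word stood in 2 of 9 replication and 11 of 17 mitotic genes, against 16.6% of tested genes and 19.2% of all promoters. CCAAT stood in 8 of 9 and 13 of 17, against 43.5% and 37.4%. Words of different motifs overlapped at 1 place, in Mcm7, and E2F words overlapped each other in Mcm5 and Mcm6.

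Sites with E2F words are shown, 1 per gene, because 4 helicase genes and 1 mitotic gene held such a word. Mcm2, also a helicase gene, held none, and Mcm3, Mcm6 and Mcm7 held further E2F words that are not printed. Capitals mark the word, read along the gene's strand, and the word of Mcm3 lies on the opposite strand.
Mcm3: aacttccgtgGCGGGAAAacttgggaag
Mcm6: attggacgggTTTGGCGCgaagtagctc
Mcm7: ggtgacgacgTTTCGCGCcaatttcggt
Cdk1: ttccgctcccTTTCGCGCtctgcgctcc
The upstream promoter of Mcm5 (chr8:75109259-75109508, plus strand, 250 bases) holds overlapping E2F words, followed by CCAAT boxes, all in capitals.
Mcm5: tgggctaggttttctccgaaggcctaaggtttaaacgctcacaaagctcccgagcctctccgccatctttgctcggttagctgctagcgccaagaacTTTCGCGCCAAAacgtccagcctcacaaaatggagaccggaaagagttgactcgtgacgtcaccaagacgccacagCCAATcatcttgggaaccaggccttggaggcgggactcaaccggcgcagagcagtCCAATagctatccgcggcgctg

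Of the 18 CHR words in the mitotic promoters, 10 began within 50 bases of the start of transcription. The others lay farther upstream, the only other place in windows that end 50 bases after the start. Of 17 mitotic genes, 10 had a CHR word starting within 50 bases of it, against 0 of 9 replication genes and 4.32% of tested genes, a window set after the positions were seen. The nearest words of the 8 tested genes that had one are shown with 10 bases on either side where the window allows, with the CHR word in capitals. Those of Kif11 and Top2a lie on the opposite strand.
Aurka: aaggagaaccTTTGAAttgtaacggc
Bub1b: agacgttaaaTTTGAAactt
Cdc20: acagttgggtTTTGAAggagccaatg
Cdk1: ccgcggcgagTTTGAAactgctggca
Cenpa: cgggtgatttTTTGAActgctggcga
Kif11: gtctccatttTTCAAAattgaggcgc
Plk1: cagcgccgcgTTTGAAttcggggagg
Top2a: tagataaaggTTCAAAtgaaactagg
Relative to the start these words began between -23 in Top2a and 41 in Bub1b. The upstream promoter of Cdc20 (chr4:118437344-118437593, minus strand, 250 bases) shows the CHR word between CCAAT boxes, all in capitals.
Cdc20: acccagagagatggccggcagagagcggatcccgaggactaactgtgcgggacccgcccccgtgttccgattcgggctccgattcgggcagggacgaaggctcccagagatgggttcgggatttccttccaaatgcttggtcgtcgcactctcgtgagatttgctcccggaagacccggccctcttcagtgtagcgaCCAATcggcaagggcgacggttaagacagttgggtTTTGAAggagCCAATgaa
These matches describe the letters in the windows and are not measurements of binding. Birc5, Nusap1, Tk1, Tacc3 and Tyms held none of the words. A link between the words and the order of the mice was not tested.

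In the wider pathway, 1 of 117 tested genes was called, Rfc3, against 1.04% of all tested genes. Rfc3 encodes a subunit of the clamp loader that places Pcna on DNA. It was at 5.79, 5.71 and 5.75 in Sle2 and 6.23, 6.40 and 6.24 in B6, with every Sle2 mouse below every B6 mouse. It fell by 0.54 on the log2 scale (SE 0.0958, adjusted p = 0.0429). Leaving out any single Sle2 mouse ended the call of Rfc3 (adjusted p = 0.153, 0.145 and 0.153), as did leaving out B6 mouse 2 or B6 mouse 3 (adjusted p = 0.115 and 0.111). With all 6 mice it was also lost with series matrix values (adjusted p = 0.0586), with the mouse number as a block (adjusted p = 0.0694) and with the Xist covariate (adjusted p = 0.0693). Rfc3 was called in 9 of 18 alternatives, with adjusted p from 0.0309 to 0.288. Rfc3 lies on chromosome 5 and was measured by 1 probe.

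The remaining pathway genes with the smallest p did not pass. In the fork and nucleotide list, Dut, which removes dUTP, was at 0.42 (adjusted p = 0.189) and Pold1, the catalytic subunit of polymerase delta, at -0.24 (adjusted p = 0.225). Among licensing and firing genes, Cdc7, a kinase that fires origins, was at 0.27, Gins1, of the helicase complex, at 0.27 and Recql4, a helicase, at 0.23. In the E2F and MuvB list, the pocket protein Rbl1 was at 0.32, Mybl2, an activator of mitotic genes, at 0.49 and the repressor E2f4 at -0.37 (adjusted p = 0.236, 0.262 and 0.292). Of genes of mitotic entry, the phosphatase Cdc25b was at -0.36, the kinase Melk at 0.31 and Anapc2, a subunit of the anaphase-promoting complex, at 0.23. In the spindle list, Spc24 of the kinetochore was at 0.31 (adjusted p = 0.175), Smc4 of condensin at 0.39 (adjusted p = 0.189) and Ckap2, a spindle protein, at -0.22. The other tested probe of Smc4 was at -0.06, so its difference depended on the probe. The medians of the 5 lists lay between 0.01 and 0.07, near the 0.02 of all tested genes. Of the 117 genes, 10 had an unadjusted p under 0.05, against 16.9% of all.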

How the data were processed

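Splenic B cell RNA of 3 Sle2 and 3 B6 mice was measured, and groups came from the sample titles. The authors deposited bead-summary intensities on a linear scale, with GenomeStudio named as software in the submitters' processing notes. Beside each intensity stands a detection p-value, per the file headers. In the authors' series matrix, linear intensities share 1 distribution over all arrays, and no source used here names the method. Here normexp background correction estimated from detection p-values (offset 16), quantile normalization and log2 were applied with neqc of limma 3.58.1 in R 4.3.3. Probes detected on at least 3 of 6 arrays were kept (17861 probes, 9297 genes). A two-sided limma model (lmFit, eBayes) compared the strains, and p-values were adjusted by Benjamini-Hochberg across the kept probes. Symbols came from the platform annotation, updated through RefSeq by gene identifier: 34807 of 34885 probes with 1 symbol matched, 18 had several symbols and 10378 none. A gene was its brightest kept probe. All members were named. Of each pathway list the called genes and the 3 with the smallest p were named, and of each marker list of other cells the 2 with the smallest p. Members and lists were chosen with earlier results of these data known. The fit was tested on simulated data. With arrays there is no count of reads, and the precision is limited by how many arrays there are. Alternatives covered background correction, scaling, filter, prior, array weights, the mean of a gene's probes, the mouse number as a block, Xist as a covariate and each mouse left out.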

Additional observations from a re-analysis of the deposited data

How the results depend on the processing

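No member was called by limma under any of 18 alternatives, with 0 to 3 members at an unadjusted p under 0.05. Of 377 recomputed member differences 30 changed sign, in 14 of 21 genes, and all stayed short of the threshold. Called genes over the whole table, 97 as reported, numbered 173 without background correction, 245 with equal medians, 187 with series matrix values, 56 with no filter, 285 with a trended robust prior, 51 with the Xist covariate, 250 at an adjusted p under 0.1 and 28 to 143 with single mice left out. In the wider pathway lists, 1 gene as reported, there were 0 with series matrix values, with the Xist covariate and with the replicate block, 0 to 1 with single mice left out, and 2 when a gene's kept probes were averaged. The second was Rbbp4 (-0.57, adjusted p = 0.0286), whose brightest probe was at 0.12 (adjusted p = 0.634). Leaving out Sle2 mouse 3 and B6 mouse 2 together, an alternative added after the data were seen, gave 27 called genes and 0 in the pathway lists. The fit with the mouse number as a block called 72 genes and 0 members. Deviations of same-numbered mice correlated at 0.20, 0.13 and 0.04 over kept probes, and 5 of 6 mice correlated best with their own number. The sample titles name no pairing, and the main fit did not use the number. Whether same-numbered mice were handled together cannot be told from the labels and was not tested. Causes of these shifts were not tested. Counting Tk1 with the replication genes, also added later, moved the replication and mitotic score differences to -0.04 and 0.10.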
